A study of Mus musculus with 10 samples.

Results

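The 32 genes described here are cell cycle and proliferation genes: the replication helicase and nucleotide supply, the cyclins and mitotic kinases, the spindle and cytokinesis proteins, the checkpoint proteins, and the chromatin markers Mki67 and Top2a. They were chosen by name, with earlier results of these data known. All 32 were found among the 54232 genes of the deposited expression table. Of the 32, 26 were expressed highly enough to be tested, among 14289 tested genes. RNA was sequenced from the gastrocnemius, a calf muscle, of 5 mice without desmin and 5 controls, and each mouse has its own column of values. Both genotypes came from 1 strain, labelled as the targeted desmin allele Destm1Cba from 129Sv on B6J. The knock-out mice were Des -/- and lacked a functional allele in every tissue, and the wild-type mice were Des wt/wt littermates. The study's methods give an age of 3 months for these mice, name no treatment and speak of RNA pooled per genotype. Elsewhere in the study the muscle is named together with the neighbouring plantaris. The sex of the mice is not given in the sources used here.

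A dividing cell passes through G1, copies its DNA in S phase, and separates the copies in mitosis. D- and E-type cyclins with their kinases inactivate the retinoblastoma protein and release E2F factors, which turn on replication genes, while a later set of genes for the spindle and cytokinesis is turned on through the MuvB complex with B-MYB and FOXM1. The nuclei of an adult muscle fiber do not divide, and dividing cells in muscle are satellite cells, the stem cells of the tissue, and cells of the interstitium such as fibroblasts, endothelial cells and macrophages. In whole muscle RNA, fewer cells of a type and less RNA per cell cannot be told apart.

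The values are regularized log (rlog) values, a log2 scale on which each gene is drawn towards its own mean, so that differences understate log2 fold changes, most of all for genes with few reads. A gene counted as tested when its mean over the 10 mice was at least log2(10), which is 3.32. Just above that limit lay Kif23 with a mean of 3.34 and Cenpf with 3.40, and just below it lay Cdc20 with 3.27 and Cenpe with 3.15. The wild-type means of Kif23 (3.25) and Cenpf (3.21) lay below the limit. Both genes reached it only through the knock-out mice, whose means were 3.43 and 3.59. Differences are knock-out minus wild-type, with the standard error (SE) and the adjusted p of limma (two-sided, Benjamini-Hochberg over all 14289 tested genes), and a gene was taken as changed at an adjusted p under 0.05.

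The targeted gene followed the labels: the rlog values of Des lay between 11.76 and 11.89 in the knock-out mice and between 16.10 and 17.74 in the wild-type mice (exact permutation test, two-sided, p = 0.00794, the smallest that 5 mice against 5 allow). Depth was unknown, since the table holds no counts. Wild-type mouse 3 stood apart from its group, with a mean correlation of 0.982 with the other wild-type mice, where those had 0.989 to 0.991 and the knock-out mice 0.996 to 0.997. Without that mouse the same 6 members were called higher and the same 1 lower.

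Of the 26 tested members, 6 rose in the desmin knock-out muscle (Kif11, Mcm6, Rrm2, Birc5, Prc1 and Nusap1), 1 fell (Mcm2) and 19 did not pass the test. Among all tested genes 7.7% were called higher and 5.99% lower, and 13.7% were called in either direction against 26.9% of the members. The differences of the tested members had a median of 0.27, 21 of them above 0 and 5 below, while the median of all tested genes was -0.0029. The 21 include Kif23 and Cenpf, which reached the limit on expression only through the knock-out mice. For these genes the limit itself favoured a difference above 0. In 4 members (Kif11, Rrm2, Birc5 and Nusap1) every knock-out mouse lay above every wild-type mouse, a pattern found in 7.45% of all tested genes. In 1 member, Mcm2, every knock-out mouse lay below every wild-type mouse, as in 6.97% of all tested genes. Mki67 and Top2a, the usual markers of dividing cells, did not pass.

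**Figure D1:**
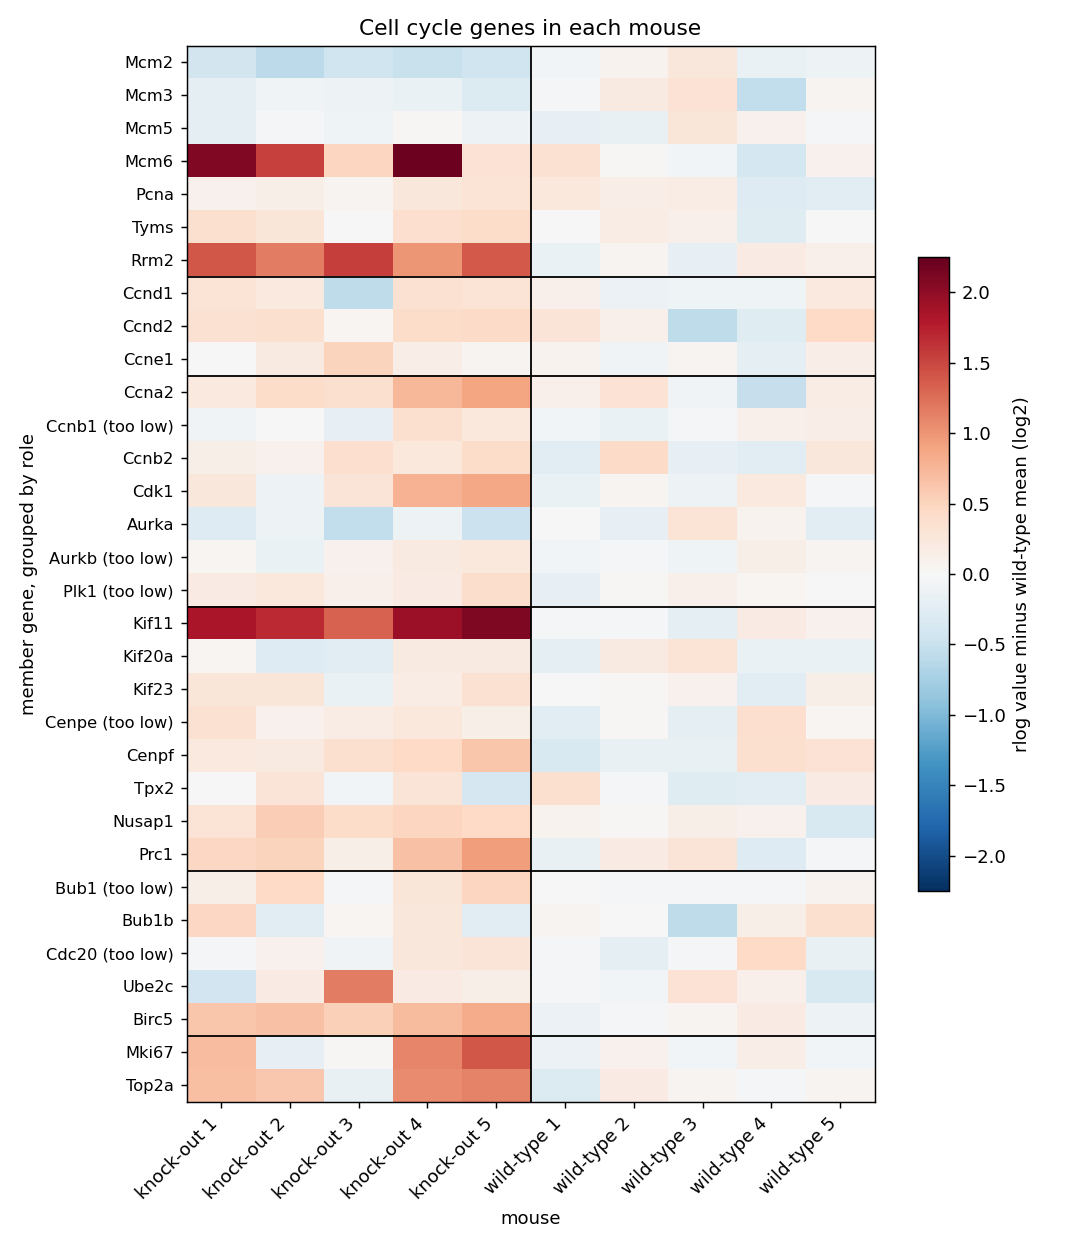
Heat map of the 32 members (vertical, grouped by role) in each of the 10 mice (horizontal); colour is the rlog value minus the mean of the wild-type mice on the log2 scale. Kif11 and Rrm2 are high in all 5 knock-out mice, Mcm6 is high in knock-out mice 1, 2 and 4, and Mcm2 is low in all 5 knock-out mice.

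Many genes of this group are switched on through short promoter elements, so the sequence before the transcription start is shown for 5 of the changed members. It was taken from RefSeq promoters on GRCm38.p6, as the 150 bases that end at the base before the annotated start, 5′ to 3′ on the strand of the gene. Capitals mark matches, on either strand, to the cell cycle genes homology region or CHR (TTTGAA), the CCAAT box (CCAAT) or an E2F motif in 1 of 4 spellings, which were TTCCCGC, then the form TTGGCGC, then the form TTCGCGC and finally the form TTGCCGC. The windows are chr19:37376232-37376381 on the plus strand for Kif11, chr12:24708104-24708253 plus for Rrm2, chr1:128359706-128359855 minus for Mcm6, chr11:117849087-117849236 plus for Birc5 and chr6:88898781-88898930 minus for Mcm2.
Kif11: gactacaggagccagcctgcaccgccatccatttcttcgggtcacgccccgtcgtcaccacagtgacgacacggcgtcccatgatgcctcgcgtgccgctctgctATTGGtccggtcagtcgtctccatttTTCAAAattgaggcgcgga
Rrm2: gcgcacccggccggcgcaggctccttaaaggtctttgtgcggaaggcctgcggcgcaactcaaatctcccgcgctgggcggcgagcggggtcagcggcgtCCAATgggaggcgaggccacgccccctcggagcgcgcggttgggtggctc
Mcm6: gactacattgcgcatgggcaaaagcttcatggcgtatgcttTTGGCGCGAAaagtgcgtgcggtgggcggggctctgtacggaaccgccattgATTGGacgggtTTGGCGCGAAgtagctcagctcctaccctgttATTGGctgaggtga
Birc5: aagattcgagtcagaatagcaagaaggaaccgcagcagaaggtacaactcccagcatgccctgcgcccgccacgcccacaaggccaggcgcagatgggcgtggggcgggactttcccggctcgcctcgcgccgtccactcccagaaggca
Mcm2: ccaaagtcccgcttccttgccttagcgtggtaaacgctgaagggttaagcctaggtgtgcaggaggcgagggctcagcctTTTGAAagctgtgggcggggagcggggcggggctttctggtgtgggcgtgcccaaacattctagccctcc
Kif11 holds a CCAAT box whose first base lies at -45 and a CHR at -19. Rrm2 holds 1 CCAAT box, at -50. Mcm6 holds an E2F motif on each strand at -109 and -106, overlapping by several bases, and the same overlapping pair again at -46 and -43, with CCAAT boxes at -57 and -14. In the window of Birc5 none of these letters was found, and Mcm2 holds a CHR at -70 and neither of the others. The bases after the RefSeq start were found in a GENCODE transcript of the gene for Rrm2 and Mcm2, but not for Kif11, Mcm6 and Birc5. For these, the window and the positions in it depend on the RefSeq start.

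Promoters were listed for 26 of the 32 members, and for 16 of these the bases after the start were found in a GENCODE transcript. A CCAAT box was found in 21 of these 26 (80.8%) and in 25.3% of the 27025 genes with a promoter of this length, a CHR in 7 (26.9%) against 9.24%, and an E2F motif in 5 (19.2%) against 5.54%. The 27025 genes were taken whether or not they were tested here. Among the 6 members called higher the counts were 4 with a CCAAT box, 1 with a CHR and 1 with an E2F motif. The 4 with a CCAAT box were Kif11, Rrm2, Mcm6 and Prc1. Among the other 20 members with a promoter, 17 held a CCAAT box, 6 a CHR and 4 an E2F motif. These 20 include members too low to be tested. Members with a CHR that did not pass the test include Mki67, Top2a and Cdk1, and Mcm2, which also holds a CHR, fell. These matches are letters in a window and were not tested for binding.

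The largest difference among the members was that of Kif11, the plus-end-directed kinesin-5 motor that pushes the spindle poles apart (chr19:37376403-37421859, plus strand, GRCm38). Its rlog values were 7.59, 7.43, 7.07, 7.68 and 7.84 in knock-out mice 1 to 5. In wild-type mice 1 to 5 they were 5.71, 5.72, 5.54, 5.93 and 5.84. The lowest knock-out mouse lay more than 1 log2 unit above the highest wild-type mouse. The means were 7.52 ± 0.29 and 5.75 ± 0.15 (SD, n = 5 each), the difference was 1.77 (SE 0.14) and limma's adjusted p was 3.53e-06. When single mice were left out, the difference lay between 1.70 and 1.89.

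Of the 7 tested members for the spindle, kinetochore and cytokinesis, 2 more rose, Nusap1 and Prc1. Nusap1 bundles and stabilizes spindle microtubules. Its values were 4.57, 4.81, 4.67, 4.75 and 4.70 in the knock-out mice and 4.33, 4.29, 4.39, 4.36 and 3.92 in the wild-type mice, with no overlap between the genotypes. The gap between them was narrow, and the difference was 0.44 (SE 0.12, limma adjusted p = 0.0224). Prc1 crosslinks the antiparallel microtubules of the central spindle during cytokinesis. Its values were 4.05, 4.07, 3.70, 4.24 and 4.51 against 3.41, 3.76, 3.87, 3.29 and 3.55. Knock-out mouse 3 lay inside the wild-type range and the other 4 above it, and the difference was 0.54 (SE 0.16, limma adjusted p = 0.0414).

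Both calls were close to the threshold. Nusap1 kept an adjusted p under 0.05 in 12 of the 17 alternative fits that tested it and Prc1 in 6 of 17. Nusap1 did not pass without knock-out mouse 2, 4 or 5, with differences of 0.42, 0.43 and 0.44 and limma adjusted p of 0.0569, 0.0604 and 0.0552. Prc1 passed only without knock-out mouse 3, wild-type mouse 2 or wild-type mouse 3, and without any other mouse its difference lay between 0.44 and 0.55, with limma adjusted p from 0.0685 to 0.111. Prc1 shares 911 exonic bases, 11.1% of its exonic length, with Rccd1 on the opposite strand, and the strand setting of the counting is not given in the sources used here, so its values are uncertain. Rccd1 itself differed by 0.30 (limma adjusted p = 0.421).

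The remaining spindle members did not pass. Cenpf, a kinetochore protein that appears in G2, differed by 0.37 (SE 0.16, limma adjusted p = 0.137), and its knock-out mice spanned 3.42 to 3.83 against 2.88 to 3.57. Kif23, the kinesin of the centralspindlin complex, differed by 0.18 (SE 0.12, limma adjusted p = 0.372). Tpx2, the spindle assembly factor that activates Aurora A, differed by 0.02 (SE 0.16), with a 95% interval from -0.32 to 0.36 before adjustment. Kif20a, the kinesin that carries the passenger complex to the midzone, differed by -0.02 (SE 0.15). A stretch of 1271 exonic bases of Kif20a, 29.3% of its length, is also part of Cdc23 on the opposite strand, which differed by 0.02 (SE 0.08) at a mean rlog value of 9.47.

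**Figure D2:**
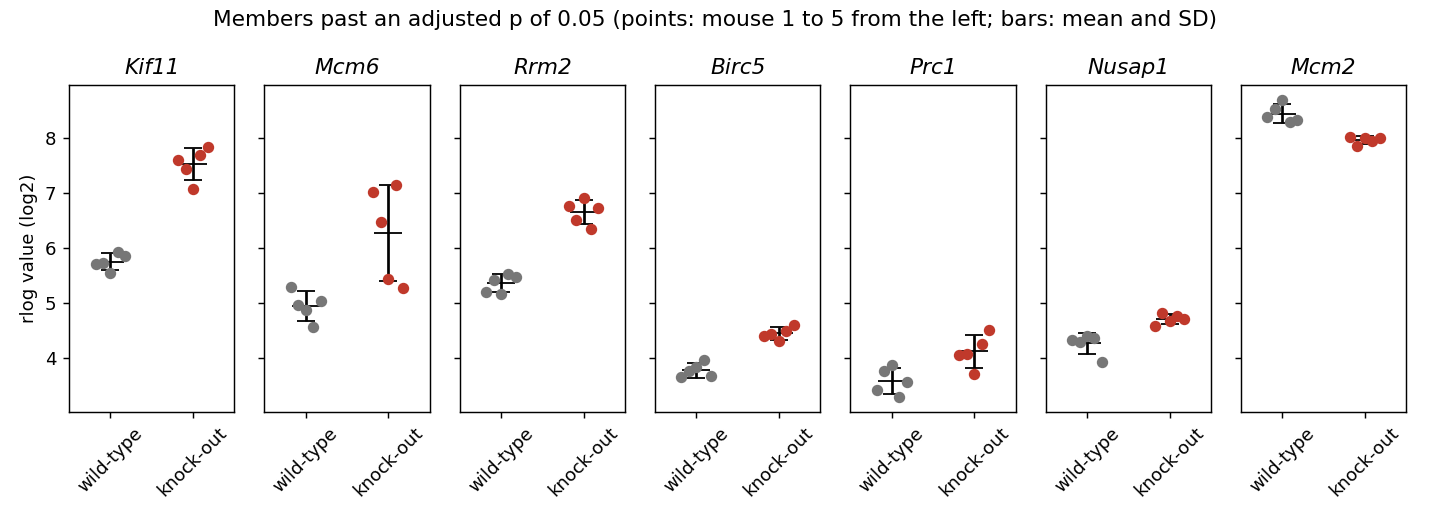
Rlog values (log2) of the 7 members past an adjusted p of 0.05, 1 panel per gene, with 1 point per mouse (wild-type grey, knock-out red) and bars for the mean and SD of 5 mice. Kif11, Rrm2, Birc5 and Nusap1 show 2 separate groups with the knock-out mice on top, Mcm2 shows them in the opposite order, and the knock-out points of Mcm6 spread from 5.27 to 7.14.

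Of the 7 members for replication and nucleotide supply, all tested, 2 rose and 1 fell. Rrm2, the regulated small subunit of ribonucleotide reductase, which makes deoxyribonucleotides for DNA synthesis, rose in every knock-out mouse (chr12:24708241-24714146, plus strand). Its values were 6.75, 6.51, 6.90, 6.34 and 6.73 in the knock-out mice. In the wild-type mice they were 5.20, 5.41, 5.16, 5.53 and 5.46. The knock-out mice stood well clear of the wild-type mice, at 6.65 ± 0.22 against 5.35 ± 0.16 (SD, n = 5 each). The difference was 1.29 (SE 0.13, limma adjusted p = 2e-05) and stayed between 1.23 and 1.37 when single mice were left out.

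Mcm6, a subunit of the MCM2-7 ring that unwinds DNA at the replication fork, rose on average but unevenly between mice (chr1:128331590-128359664, minus strand). Its values were 7.02, 6.47, 5.43, 7.14 and 5.27 in knock-out mice 1 to 5 and 5.29, 4.96, 4.87, 4.55 and 5.03 in wild-type mice 1 to 5. Knock-out mice 1, 2 and 4 lay far above the wild-type range, mouse 3 just above it and mouse 5 inside it. The SD was 0.87 in the knock-out mice and 0.27 in the wild-type mice, and the difference of 1.32 (SE 0.33) had a limma adjusted p of 0.0161. When single mice were left out it ranged from 1.11 to 1.57 and stayed past the threshold.

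Mcm6 lies on the chromosome of the targeted gene, 53 Mb from Des. Of 11 other tested genes within 1 Mb of Mcm6, 1 was called, where 13.7% of all tested genes were called. It was the gene Gm28800, which was higher by 0.744 (limma adjusted p = 0.00456). The other neighbours included Dars, which adjoins Mcm6 and differed by -0.0362, and Zranb3, which had the lowest difference of -0.291. Gm28800 lies inside Zranb3 on the opposite strand, and its values were 5.09, 5.00, 4.61, 5.13 and 5.30 in knock-out mice 1 to 5. In wild-type mice 1 to 5 they were 4.54, 4.49, 4.06, 4.20 and 4.10. An effect of the region was not tested.

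Mcm2, another subunit of the same ring, fell (chr6:88883474-88898780, minus strand). Its values were 8.02, 7.85, 7.99, 7.94 and 7.99 in the knock-out mice and 8.37, 8.52, 8.69, 8.28 and 8.32 in the wild-type mice. Every knock-out mouse lay below every wild-type mouse, and the knock-out mice lay close together, with an SD of 0.07 against 0.17. The difference was -0.48 (SE 0.10, limma adjusted p = 0.0064), and it lay between -0.52 and -0.42 when single mice were left out.

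The other ring subunits followed neither of these. Mcm3 differed by -0.17 (SE 0.15, limma adjusted p = 0.482) and Mcm5 by -0.09 (SE 0.12, limma adjusted p = 0.645). From the list of further replication genes, Mcm4 differed by 0.18 (SE 0.10, limma adjusted p = 0.294) and Mcm7 by -0.04 (SE 0.09, limma adjusted p = 0.808). The 6 subunits form the ring together, and of their transcripts 1 rose, 1 fell and 4 did not pass. Pcna, the sliding clamp of the DNA polymerases, differed by 0.16 (SE 0.12, limma adjusted p = 0.4), with knock-out mice between 9.31 and 9.57 and wild-type mice between 8.97 and 9.49. Tyms, thymidylate synthase, differed by 0.29 (SE 0.12, limma adjusted p = 0.152), and 4 of 5 knock-out mice lay above all wild-type mice.

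**Figure D3:**
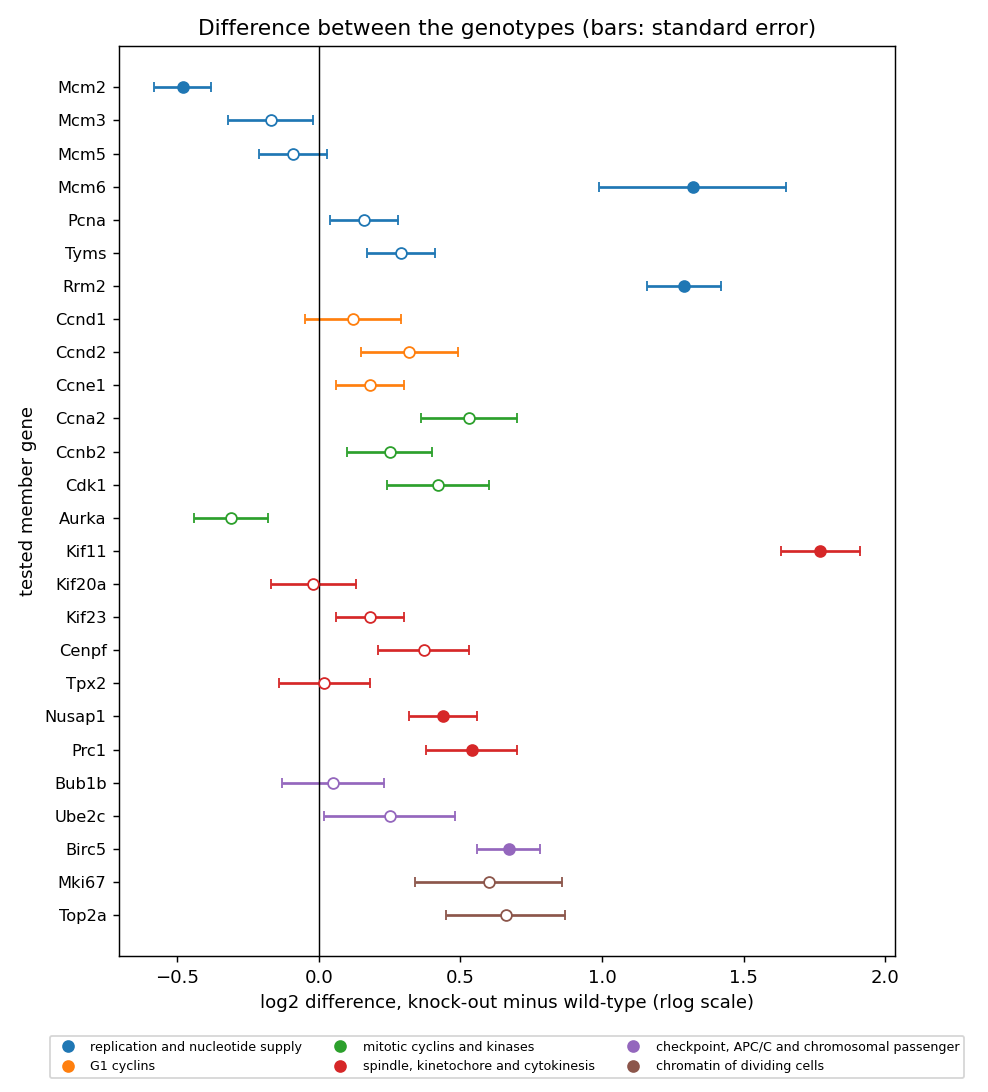
Difference between the genotypes for the 26 tested members (horizontal, knock-out minus wild-type on the rlog log2 scale; bars are the standard error), coloured by role, with filled points for an adjusted p under 0.05. Kif11, Mcm6 and Rrm2 lie above 1, Mcm2 lies at -0.48 and the open points lie between -0.31 and 0.66.

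Among the checkpoint and chromosomal passenger members, Birc5 rose. It encodes survivin, the subunit that brings the chromosomal passenger complex to centromeres and the midzone (chr11:117849251-117855743, plus strand). Its values were 4.39, 4.43, 4.30, 4.48 and 4.60 in the knock-out mice and 3.64, 3.75, 3.83, 3.96 and 3.66 in the wild-type mice. The genotypes did not overlap, and the difference was 0.67 (SE 0.11, limma adjusted p = 0.00099). Its partner kinase in that complex, Aurkb, was too low to be tested.

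Bub1b, the checkpoint kinase-like protein BubR1, differed by 0.05 (SE 0.18, limma adjusted p = 0.874). Ube2c, the ubiquitin-conjugating enzyme of the anaphase-promoting complex (APC/C), differed by 0.25 (SE 0.23, limma adjusted p = 0.513), with values from 9.30 to 10.88 in the knock-out mice and from 9.39 to 10.05 in the wild-type mice. Ube2c had the highest level of all members per length, 8.47 as mean rlog minus log2 of the exonic length in kb. It shares 592 exonic bases, 22.8% of its length, with Tnnc2 on the opposite strand, the gene of fast muscle troponin C, whose mean rlog value was 18.76. How far reads of Tnnc2 enter the values of Ube2c was not tested.

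The markers of dividing cells and the mitotic cyclins gave mean differences above 0 that did not pass the test. Mki67, the surface protein of mitotic chromosomes detected as Ki-67, had values of 5.30, 4.41, 4.62, 5.69 and 5.99 in the knock-out mice and 4.47, 4.70, 4.54, 4.75 and 4.54 in the wild-type mice. Knock-out mice 1, 4 and 5 lay above the wild-type range, mouse 3 inside it and mouse 2 below it. The difference was 0.60 with a 95% interval from 0.05 to 1.15 before adjustment, and limma's adjusted p was 0.142. The SD was 0.68 in the knock-out mice and 0.12 in the wild-type mice.

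Top2a, the topoisomerase that untangles replicated chromosomes, had values of 4.86, 4.80, 4.02, 5.25 and 5.30 against 3.89, 4.38, 4.26, 4.17 and 4.25. Mouse 3 lay inside the wild-type range and the other 4 above it. The difference was 0.66 (95% interval 0.20 to 1.11 before adjustment, limma adjusted p = 0.0549). Ccna2, cyclin A2 of S phase and G2, had values of 4.59, 4.77, 4.73, 5.11 and 5.26 against 4.47, 4.69, 4.28, 3.85 and 4.53, and differed by 0.53 (SE 0.17, limma adjusted p = 0.0635). Cdk1, the kinase that drives entry into mitosis, had values of 3.64, 3.27, 3.67, 4.16 and 4.25 against 3.24, 3.45, 3.26, 3.60 and 3.36, and differed by 0.42 (SE 0.18, limma adjusted p = 0.14). In each of these 4 genes the highest values of the 10 mice were those of knock-out mice 4 and 5. Ccna2 shares 510 exonic bases, 12.5% of its length, with Exosc9 on the opposite strand.

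**Figure D4:**
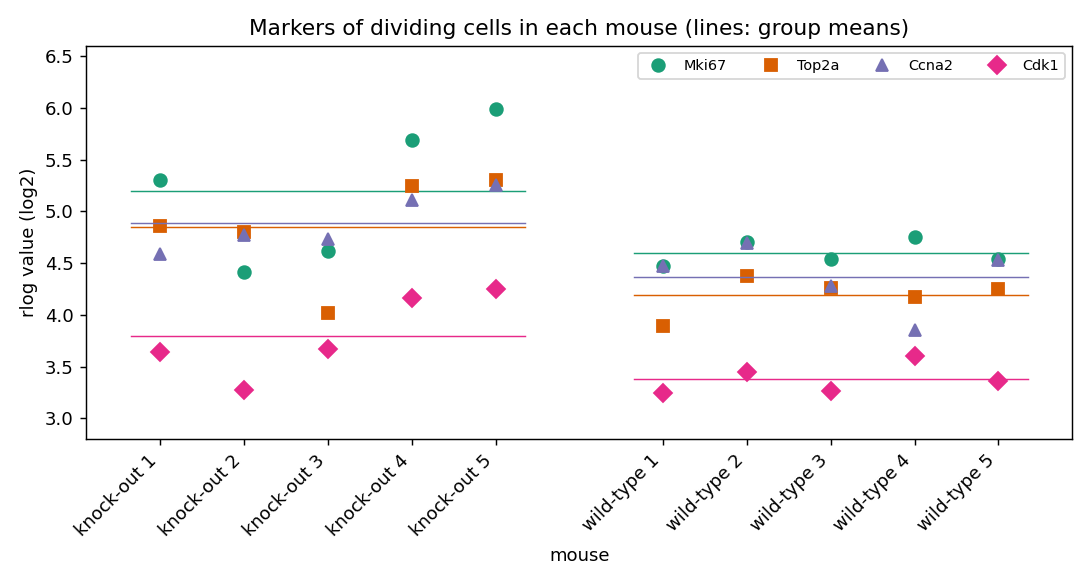
Rlog values (log2, vertical) of Mki67, Top2a, Ccna2 and Cdk1 in each mouse (horizontal), with lines for the mean of each genotype. Knock-out mice 4 and 5 hold the highest values of all 4 genes, and the other 3 knock-out mice lie nearer to the wild-type mice or among them.

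The 4 genes passed the test in single alternative fits. Mki67 and Cdk1 had an adjusted p under 0.05 without knock-out mouse 2, with differences of 0.80 and 0.55, Top2a without knock-out mouse 3, with 0.86, and Ccna2 without wild-type mouse 2, with 0.61. All 4 passed when limma's sample weights were used, under which 12 members were called higher and 4220 of all tested genes were called in either direction in place of 1956.

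The mice differed in how many members they held high. Of the 26 tested members, 11 had their highest value of all 10 mice in knock-out mouse 5, and 9 had their lowest value in wild-type mouse 4. The median over the members of the value minus the wild-type mean was 0.38 in knock-out mouse 5, 0.36 in mouse 4, 0.27 in mouse 1, 0.22 in mouse 2 and 0.05 in mouse 3. Mouse 3 was nearest to the wild-type mice over the members as a whole, although it had the highest Rrm2 value of all mice.

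Ccnb2, cyclin B2, differed by 0.25 (SE 0.15, limma adjusted p = 0.31). Aurka, the Aurora A kinase of the spindle poles, differed by -0.31 (SE 0.13, limma adjusted p = 0.142), and 3 of 5 knock-out mice lay below all wild-type mice. Its level per length, 7.38 on the same scale, was the highest but for Ube2c and Pcna, while those of Ccna2 (2.60) and Cdk1 (1.29) were far lower, so these mitotic genes were present at unequal levels in the muscle.

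None of the G1 cyclins passed. Ccnd1, cyclin D1, differed by 0.12 (SE 0.17, limma adjusted p = 0.665), with 8.24, 8.16, 7.37, 8.27 and 8.25 in the knock-out mice and 7.80 to 8.16 in the wild-type mice. Knock-out mouse 3 was the lowest of all mice and 3 of the others lay above every wild-type mouse. Ccnd1 shares 1100 exonic bases, 23.4% of its length, with LTO1 on the opposite strand, a gene with a mean of 8.67. Ccnd2, cyclin D2, differed by 0.32 (SE 0.17, limma adjusted p = 0.258), and Ccne1, cyclin E1, by 0.18 (SE 0.12, limma adjusted p = 0.37).

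The 6 members too low to be tested were Ccnb1 (mean rlog value 2.30), Aurkb (2.33), Plk1 (2.77), Cenpe (3.15), Bub1 (1.59) and Cdc20 (3.27). They encode cyclin B1, the kinases Aurora B and polo-like kinase 1, the kinetochore motor CENP-E, the checkpoint kinase BUB1 and the APC/C activator CDC20. In a fit without the limit on expression, none of the 6 passed, and their differences lay between 0.07 and 0.26. Plk1 was the only one of them without overlap, with 2.85, 2.90, 2.77, 2.85 and 3.06 in the knock-out mice and 2.48, 2.68, 2.77, 2.71 and 2.65 in the wild-type mice. The lowest knock-out and the highest wild-type value were equal to 2 decimals, and its difference of 0.23 had a limma adjusted p of 0.153 in that fit. On this scale values this low are strongly drawn towards the mean.

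Genes around these members were counted in 5 further lists of cell cycle genes, 150 in all, of which 111 were tested, 8 were called higher and 5 lower. That is 11.7% called, against 13.7% of all tested genes. Their differences had a median of -0.0009, against 0.27 for the members. Of the replication machinery, 36 of 42 genes were tested, none was called higher and 2 were lower (5.56%, against 5.99% of all tested genes), with 12 differences above 0 and 24 below. The 2 were Gmnn, the licensing inhibitor geminin, at -0.46 (SE 0.12, limma adjusted p = 0.0233), and Prim1, the catalytic primase subunit, at -0.51 (SE 0.11, limma adjusted p = 0.00867). Gmnn did not pass without knock-out mouse 1, 2 or 3 or wild-type mouse 2, with differences of -0.44, -0.41, -0.42 and -0.42. Rrm2 and Mcm6 belong to the same process as these genes, of which none was called higher.

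Of the mitosis machinery, 31 of 58 genes were tested, 2 were called higher and 1 lower, with a median of 0.06. That is 9.68% called, below the 13.7% of all tested genes. Ckap2, a spindle microtubule protein, rose by 0.66 (SE 0.19, limma adjusted p = 0.0333), although knock-out mouse 2 lay below all wild-type mice. The wild-type values of Ckap2, 3.04 to 3.26, all lay below the limit on expression of 3.32. Its mean of 3.48 over all mice reached that limit only through the knock-out mice, whose mean was 3.81. Ckap2 was also called higher in the fit without that limit. Sgo2a, a shugoshin that protects centromeric cohesin, rose by 0.57 (SE 0.17, limma adjusted p = 0.0435). Zwint, which links the kinetochore to the checkpoint, fell by 0.40 (SE 0.10, limma adjusted p = 0.0214). The 3 adjusted p values were near the threshold. When single mice were left out, the difference of Ckap2 ranged from 0.57 to 0.86. That of Sgo2a ranged from 0.44 to 0.65 and that of Zwint from -0.45 to -0.33. Ckap2 did not pass when any mouse but knock-out mouse 2 or wild-type mouse 3 was left out (0.57 to 0.68). Sgo2a did not pass without any 1 of the knock-out mice or without wild-type mouse 3 or 4 (0.44 to 0.62). Zwint did not pass without knock-out mouse 1 or 2 (-0.38 and -0.36). The other 27 mitosis genes of the list were too low to be tested. In the fit without the limit on expression, 4 of these 27 were called higher and none lower, where 5.89% of the 19952 genes in that fit were called higher. They were Hmmr (0.45, limma adjusted p = 0.00734), Melk (0.32, adjusted p = 0.0183), Aspm (0.42, adjusted p = 0.0352) and Cks2 (0.35, adjusted p = 0.0395), and they were named after their values had been seen. All 5 knock-out mice lay above every wild-type mouse for Hmmr, and 4 of 5 did for each of the others. In that fit Sgo2a had an adjusted p of 0.0502, so that the list held 5 genes called higher in place of 2.

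**Figure D5:**
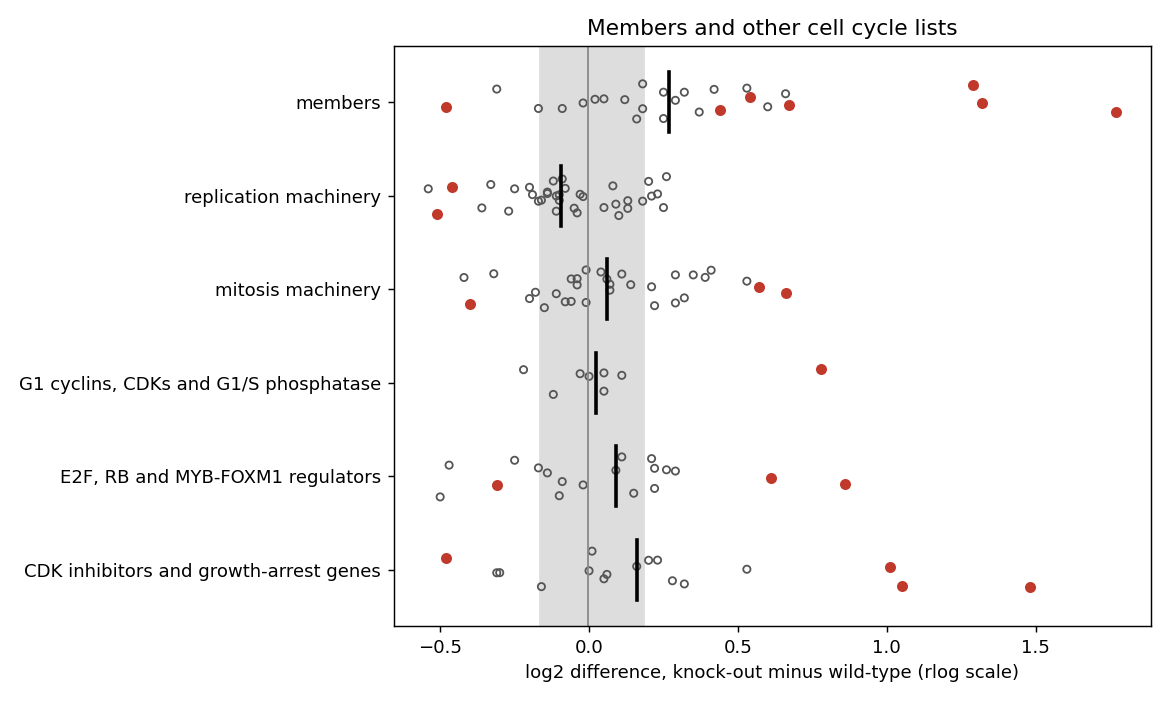
Differences between the genotypes (horizontal, knock-out minus wild-type on the rlog log2 scale) of the tested members and of the tested genes in 5 further lists; each point is a gene, filled red for an adjusted p under 0.05, the black bar is the median of its list, and the grey band runs from the lower to the upper quartile of all tested genes, -0.17 to 0.18. The median of the members, 0.27, lies above the band and the medians of the other lists, -0.10 to 0.16, lie within it.

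Of 8 G1 cyclins, kinases and the phosphatase Cdc25a, 1 was called (12.5%, near the 13.7% of all tested genes). It was Cdk6, a kinase partner of the D-type cyclins, which rose by 0.78 (SE 0.17, limma adjusted p = 0.00723). Ccnd3 and Ccne2 differed by 0.05 each, with limma adjusted p of 0.832 and 0.901. Of the E2F, RB and MYB-FOXM1 regulators, 19 of 23 were tested and 3 were called (15.8%, also near that share). E2f8, an atypical E2F that represses E2F targets, rose by 0.86 (SE 0.15, limma adjusted p = 0.00185), and Rb1, the retinoblastoma protein itself, rose by 0.61 (SE 0.10, limma adjusted p = 0.00149). E2f6, a repressor of the family, fell by 0.31 (SE 0.10, limma adjusted p = 0.0472). E2f6 passed in 5 of 18 alternative fits. It passed only without wild-type mouse 3 or 4 among the fits with a mouse left out, and otherwise differed by -0.33 to -0.28.

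Of the CDK inhibitors and growth-arrest genes, 17 of 19 were tested, 3 were called higher and 1 lower. That is 23.5% called, against 13.7% of all tested genes, and rests on few genes. Cdkn1a, the CDK inhibitor p21, had 11.65, 11.40, 11.66, 11.34 and 11.17 in the knock-out mice and 10.11, 9.90, 10.03, 9.85 and 9.90 in the wild-type mice. It rose by 1.48 (SE 0.11, limma adjusted p = 1.46e-06), and the genotypes did not overlap. Cdkn2a, whose locus encodes both p16 and p19ARF in overlapping transcripts that gene-level values do not separate, rose by 1.01 (SE 0.15, limma adjusted p = 0.000534). Gadd45a, a growth arrest and DNA damage gene, rose by 1.05 (SE 0.20, limma adjusted p = 0.0029), and Cdkn1c, the inhibitor p57, fell by 0.48 (SE 0.12, limma adjusted p = 0.0189). Cdkn1c missed the threshold without knock-out mouse 1, 2 or 5, with differences of -0.46, -0.47 and -0.47.

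The other inhibitors did not pass. Cdkn1b, p27, differed by 0.28 (SE 0.28, limma adjusted p = 0.565), with wild-type mouse 3 at 8.36 and all other mice between 9.73 and 10.29. Of the remaining INK4 genes, Cdkn2b differed by -0.16 (limma adjusted p = 0.484), Cdkn2c by -0.30 (limma adjusted p = 0.139) and Cdkn2d by -0.0009 (limma adjusted p = 0.996).

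Markers of the cells that a whole muscle holds were read beside the members. Of all tested genes, 7.7% were called higher and 5.99% lower, 13.7% in either direction. The shares called were 37.5% of the satellite cell and myoblast markers and 0% of the macrophage markers. They were 50% of the fibroblast and 62.5% of the endothelial markers, and each rests on few genes. Of 8 satellite cell and myoblast markers, 2 were called higher and 1 lower, and their summed level (log2 of the sum) spanned 11.36 to 11.68 in the knock-out mice and 11.17 to 11.62 in the wild-type mice. The called markers were Myog, which rose by 1.23 (limma adjusted p = 0.000375), Chodl, which rose by 0.89 (adjusted p = 0.00252), and Myod1, which fell by 0.47 (adjusted p = 0.0219). Pax7, which marks satellite cells, differed by 0.01 (limma adjusted p = 0.956). Macrophage markers showed 0 of 10 called, with sums of 11.39 to 11.88 against 11.42 to 11.77. Of 8 fibroblast markers 3 were higher and 1 was lower, with sums of 13.82 to 14.41 against 13.51 to 14.37. Of 8 endothelial markers 5 were lower and none was higher, and their sums did not overlap, at 11.99 to 12.43 against 12.44 to 12.82.

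Of 7 tested Schwann cell markers, 1 was called higher, with sums of 10.26 to 10.61 against 9.87 to 10.67. Of 6 tested erythroid markers, 2 were lower, with sums of 12.95 to 13.62 against 13.38 to 13.90. No marker of T and B cells was high enough to be tested, and their sums were 4.51 to 4.61 against 4.56 to 4.83. The muscle fiber markers, which check the labelled tissue, had sums of 22.18 to 22.41 in the knock-out mice and 22.46 to 23.40 in the wild-type mice. These sums, like the endothelial ones, were lower in the knock-out mice without overlap. How often sums of other genes separate the genotypes was not tested. Of the 10 muscle fiber markers 1 was higher and 2 were lower. The shares called were 14.3% of the tested Schwann cell, 33.3% of the tested erythroid and 30% of the muscle fiber markers. Among all tested genes the share was 13.7%. No marker of any list had the value 0 in all mice. The part of these cell types in the differences of the cell cycle members was not tested.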

How the data were processed

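RNA of gastrocnemius muscle from 10 mice, 5 per genotype, was sequenced from a stranded mRNA library of each mouse. The submitters' processing notes name cutadapt 2.5, STAR 2.5.4a, Subread 1.6.1 with featureCounts, and DESeq2, on GRCm38, and the study's methods name featureCounts and DESeq2. The authors deposited DESeq2's regularized log values, which are on a log2 scale, adjusted for library size and shrunken towards each gene's mean. Shrinkage narrows differences, most for genes with few reads. The table holds no counts, so depth and counting error are unknown.

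Genotypes were compared with limma 3.58.1 under R 4.3.3, using lmFit with genotype alone and eBayes with a trended prior, for the 14289 genes whose mean reached log2(10). Tests were two-sided and adjusted over all these genes (Benjamini-Hochberg). The procedure was checked on simulated data. The spread was that between mice of a genotype. Des was tested with an exact permutation test. Symbols and positions came from GENCODE M21 (GRCm38) and promoters from RefSeq on GRCm38.p6.

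The members, lists and tests were chosen with earlier results of these data known. All 32 members were reported, with each mouse's value for those called or without overlap. Mki67, Top2a, Ccna2, Cdk1, Ccnd1, Cdkn1a and Gm28800 were also given mouse by mouse after their values had been seen, and Gm28800, Dars, Zranb3, Hmmr, Melk, Aspm and Cks2 were named after their values had been seen. The same holds for the markers Pax7, Myog, Myod1 and Chodl. Of each further list, up to 4 called genes with the smallest adjusted p were named, with the Mcm ring, D and E cyclins and the Cip/Kip and INK4 inhibitors whatever their p.

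The fit was repeated with no expression limit, with a limit of log2(50), after quantile normalization or median centring, with limma's arrayWeights, with 1 untrended prior variance, with the labels' replicate number as a block, with Y-linked expression (the mean of 4 genes) as a covariate, at an adjusted p under 0.01, and after leaving out single mice.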

Additional observations from a re-analysis of the deposited data

Results flagged for a closer look

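In each genotype, the highest or lowest of the 5 mice was compared with its nearest neighbour for the 26 tested members, 52 groups in all. The gap exceeded Dixon's 95% limit in 3 groups, where about 2.6 are expected by chance. Ccnd1 in knock-out mouse 3 had 7.37, and the nearest knock-out mouse had 8.16. Ccnd2 in the same mouse had 7.81, and the nearest had 8.10. Nusap1 in wild-type mouse 5 had 3.92, and the nearest wild-type mouse had 4.29. Without that mouse, the difference of Nusap1 was 0.36 (limma adjusted p = 0.0419). None of the 3 was in wild-type mouse 3.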

How the results depend on the processing

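Kif11, Rrm2 and Mcm2 kept their direction and their call at an adjusted p under 0.05 in all 18 alternative fits, and Mcm6 and Birc5 in the 17 that tested them. The stricter threshold of 0.01 is not among these fits. At that threshold Kif11, Rrm2, Birc5 and Mcm2 kept their call, and Mcm6 lost it (limma adjusted p = 0.0161). The 6 members called higher became 2 with a limit of log2(50), which no longer tested Mcm6, Birc5, Nusap1 and Prc1, 12 with sample weights and 3 at an adjusted p under 0.01, and 4 to 7 with each mouse left out; the 1 called lower stayed 1. Of the genes in the further lists, the 8 called higher became 3 with the limit of log2(50), 18 with weights, 11 with no limit on expression, and 6 to 8 with a mouse left out. The 5 called lower became 13 with weights and 1 at an adjusted p under 0.01, and ranged from 1, without knock-out mouse 1 or 2, to 8, without wild-type mouse 3 or 4. Of all tested genes, the 1956 called became 4220 with weights (2093 higher, 2127 lower) and 994 at an adjusted p under 0.01 (623 higher, 371 lower). With each mouse left out, 1399 to 2494 were called, 827 to 1335 higher and 560 to 1159 lower, the 560 without knock-out mouse 5. The cause of these changes was not tested.

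Directions reversed in genes that passed in no fit, with differences from -0.16 (Cdkn2b) to 0.28 (Cdkn1b) in the fit as reported. With sample weights Mcm5 became 0.06, Kif20a 0.12, Tpx2 -0.11, Bub1b -0.02, Ccne2 -0.30, Cdkn1b -0.09, Cdkn2b 0.02 and Cdkn2d 0.08. With the Y-linked covariate Mcm5 became 0.01, Kif20a 0.02, Tpx2 -0.08, Bub1b -0.05, Mcm7 0.01, Ccne2 -0.27, Cdkn1b -0.12 and Cdkn2d 0.07. With quantile normalization Tpx2 became -0.05, Bub1b -0.02 and Ccne2 -0.01, and with median centring Tpx2 became -0.02. With each mouse left out, Kif20a ranged from -0.07 to 0.06, Tpx2 from -0.05 to 0.12, Bub1b from -0.09 to 0.15, Ccnd3 from -0.0025 to 0.18, Ccne2 from -0.10 to 0.20, Cdkn1b from -0.06 to 0.43 and Cdkn2d from -0.05 to 0.09.

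The replicate numbers of the labels did not pair the mice: the deviations of same-numbered mice from their group means correlated at 0.0299, -0.219, 0.0119, -0.15 and 0.0673. With the replicate block, 4 members were called higher and 1 lower, and 1579 of all tested genes were called. Depth is unknown for these values, so genes near the limit on expression, the mitotic members above all, could not be given a counting error.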
